A study of Mus musculus with 6 samples.

Results

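In cultured mouse spermatogonial stem cells, 1571 sequences of 25 to 31 nt took at least as large a share of the library without Mili as with it, and they are called the retained sequences here. They were chosen from the distinct sequences of the untreated wild type library that were 25 to 31 nt long, had 20 or more reads there and had no exact match to an annotated small RNA (GENCODE M21). Of 10754 such candidates, these 1571 (14.6%) were at least as high in the mili knock-out library as in wild type by rpm, the reads per 1000000 reads of 18 to 35 nt. The other 9183 candidates were lower in the mili knock-out, 8674 (80.7% of all candidates) at least 2-fold, and 8112 of them had 0 reads there. The mili knock-out to wild type ratio therefore chose the retained sequences and is given only as a description.

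The study profiled small RNAs of these cells with and without Hen1 and Mili, and asked which small RNAs have a modified 3′ end. The stem cells came from a 15-day-old F1 male of C57BL/6 and DBA2 (the strain label gives C57BL/6) that carried an actin-EGFP transgene, and they were grown on mouse embryonic fibroblast (MEF) feeders, so feeder RNA can be present in every library. Knock-out lines were made by transient transfection of spCas9 and guide RNAs against mHen1 or Mili, followed by picking single colonies and checking them by Sanger sequencing. Each knock-out is thus known from picked colonies, and the number of clones behind a library is not given. The 6 libraries were wild type untreated, wild type treated with NaIO4 (200 mM stock), hen1 knock-out (mhen1-/-) untreated, hen1 knock-out treated with NaIO4, mili knock-out (mili-/-) untreated, and RNA bound in wild type cells by an antibody to MILI (MABE363). They held, in that order, 7322408, 10282416, 11702714, 2604390, 4808088 and 25240941 reads of 18 to 35 nt. Each group had 1 library, so no difference between conditions could be tested, and the 95% intervals given with values cover counting error only. Reads amplified by PCR are not independent molecules, so the true error is larger.

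MILI, the product of Piwil2, belongs to the Piwi proteins. Its partners are piRNAs, small RNAs of germ cells that direct the silencing of transposons and usually begin with uridine (read as T). Hen1 (gene Henmt1) puts a 2′-O-methyl group on the last ribose of piRNAs bound to Piwi proteins. NaIO4 (sodium periodate) oxidises RNA ends that carry free 2′ and 3′ hydroxyls, and oxidised RNAs are not ligated into a library, while methylated ends are spared. Fragments of tRNA, rRNA, snoRNA and Y RNA can fall in the same size range as piRNAs without being made by the piRNA pathway.

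The retained sequences fell into 357 families that shared 18 consecutive bases. The 10 leading families held 59.0% of their wild type reads. The lead sequences below are shown because they head the larger families and belong to different RNAs. Capitals mark the letters of the tRNA A box, the part of the internal promoter that lies near the 5′ end of a tRNA. Names ending in "type" come from general knowledge of tRNA 5′ ends, since nearly all nuclear tRNA genes were without sequence in the reference used here.
Proline type: ggcttTGGTCTAGGGGtatgattctcgc
Glycine type: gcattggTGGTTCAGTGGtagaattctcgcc
Lysine type: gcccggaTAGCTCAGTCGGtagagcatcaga
Glutamate type: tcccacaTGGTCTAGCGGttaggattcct
Second glutamate type: tcccTGGTCTAGTGGttaggattcggcgct
Alanine type: gggggtgTAGCTCAGTGGtagagcgtgc
Aspartate type: tccTCGTATAGTGGtgagtatccccgcc

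Further families came from other structural RNAs. In the microRNA and Y RNA sequences the capital marks the base that differs from the annotated RNA. In the Rpl5 sequence capitals mark the C box and the D box, the short motifs that flank the body of a C/D snoRNA. The names 28S and 5.8S also come from general knowledge. The Gm42418 sequence lies in that gene's single exon (GRCm38, chr17:39847196-39847224, + strand), and the Rmrp sequence lies in the single exon of the gene for the RNA of RNase MRP (chr4:43493030-43493059, - strand). The Rpl5 sequence matched exon 1 of 3 of a transcript of this ribosomal protein gene (chr5:107904554-107904582, + strand).
28S start: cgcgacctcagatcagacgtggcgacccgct
5.8S 5′ part: gactcttagcggtggatcactcggc
5.8S 3′ end: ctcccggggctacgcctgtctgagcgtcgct
Gm42418: agccgcctggataccgcagctaggaataa
Rmrp: agctcgctctgaaggcctgtttcctaggct
Mir182, 1 mismatch: tttggcaatggtagaactcacaccgT
Rny1, 1 mismatch: ttctcactactgcacttgactagtcttA
Rpl5, C and D box: tgccaaTGATGAcaccacactaaCTGAgc

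The retained sequences held 336550 reads in untreated wild type, or 4.60% (exact binomial 95% interval 4.58% to 4.61%) of the reads of 18 to 35 nt. They held 2.07% in wild type with NaIO4, 4.01% in the hen1 knock-out, 4.39% in the hen1 knock-out with NaIO4, 7.70% in the mili knock-out and 0.745% in the MILI immunoprecipitate. Among reads of 25 to 31 nt alone, their share was 9.89% in wild type and 40.1% in the mili knock-out. In wild type 46.5% of the reads of 18 to 35 nt were of that size, and in the mili knock-out 19.2%. The other candidates together stood at 0.142 of their wild type level there. The retained set was thus a small part of the piRNA-sized reads with Mili and a large part without it. The choice used both libraries, so the retained set had to gain on the other candidates. These shares are therefore given only as a description.

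Abundance was uneven among the retained sequences. The median was 48 reads in wild type and the highest count was 13538. A group of 806 sequences had 20 to 49 reads, while 61 sequences with 1000 or more reads held 54.9% of the reads. The mili knock-out to wild type ratio of rpm ran from 1 to 11.4 with a median of 1.63, and reached 2 in 486 sequences (30.9%; 4.52% of all candidates). The counting interval of the ratio lay wholly at or above 1 for 1000 sequences and included 1 for 571. Among the other candidates, the upper limit reached 1 for 442. The number of candidates did not drop at the threshold, with 116 at ratios of 0.9 to 1.0 and 137 at 1.0 to 1.1. Just inside it was a sequence with 67 wild type and 44 mili knock-out reads (ratio 1), and just outside one with 32 and 21 reads (ratio 0.999).

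The choice of library total decides how many sequences count as retained. microRNA reads, which do not depend on Piwi proteins, stood at 1.77 (1.77 to 1.78) times their wild type rpm in the mili knock-out, slightly above the 1.68 (1.67 to 1.68) of the retained sequences together. Counted per microRNA read, 661 sequences remained at or above wild type. Of the 1931 sequences left out because they matched annotated small RNAs exactly, 901 (46.7%) were at or above wild type by rpm.

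By source, marks of tRNA were the most frequent among the retained sequences. A search for the A box letters TNGNNNANNGG or TNGNNNANNNGG, starting in the first 10 bases of the read strand, found 430 of the 1571 (27.4%), against 5.45% of the other candidates and 8.65% of all candidates. These 430 held 49.2% of the retained reads. The B box letters GTTCNANNC, from the T arm of a tRNA, were in 11 (0.700%, against 5.02%), and 30 (1.91%, against 0.795%) ended in CCA, the last bases of a mature tRNA. The A box lies in the 5′ part of a tRNA and the B box in the 3′ part. RefSeq lists 408 nuclear tRNA genes, of which 13 had sequence in the reference, and 92 retained sequences (5.86%) were within 4 edits of one of these. With the A box, the B box or such a match as criterion, and after the classes described next were set apart, 452 sequences with 168069 reads (49.9%) had tRNA letters. Of all candidates with tRNA letters, 33.3% were retained, above the 14.6% of all candidates.

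Near copies of annotated small RNAs made up a second large group. Within 2 mismatches of one lay 236 retained sequences (15.0%), against 2.73% of the other candidates. Of these, 124 with 22479 reads lay near microRNAs, 38 near 5S or 5.8S rRNA, 27 near mitochondrial tRNA or rRNA, 25 near snoRNA or snRNA and 22 near other small RNAs such as Y RNAs. Mir182, a microRNA of the Mir183 cluster, gave 12 sequences with 10056 reads. Its lead had 8654 reads in wild type, 596 with NaIO4, 3497 in the hen1 knock-out, 232 there with NaIO4, 9228 in the mili knock-out and 660 in the immunoprecipitate. It is 1 base longer than a 25-nt form that matched Mir182 exactly, which had 3624 wild type and 4027 mili knock-out reads. Rny1, the gene of a Y RNA that binds the Ro protein, gave 8 sequences with 4733 reads in wild type and 9069 in the mili knock-out. The share of candidates retained was 56.4% near microRNAs, 67.9% near 5S or 5.8S rRNA, 58.1% near snoRNA or snRNA and 62.8% near mitochondrial RNA.

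C/D box letters marked a further class. The letters TGATGA in the first 12 bases together with CTGA in the last 8 were found in 59 retained sequences (3.76%) and 0.207% of the other candidates. The Rpl5 sequence printed above is one of them, with 1131 reads in wild type and 1949 in the mili knock-out. Of the candidates classed by these letters, 75.7% were retained, with 9965 reads in wild type and 10103 in the mili knock-out.

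Another class held letters of the sequencing adapter. The letters GACGATC or GTCCGAC, from the end of the Illumina small RNA 5′ adapter as generally known, were in 79 retained sequences (5.03%), against 0.305% of the other candidates. These sequences held 15994 wild type reads, or 4.75% of the retained reads, and are not printed. The largest family led by such a sequence held 53 sequences, with 13577 reads in wild type and 20324 in the mili knock-out. This family also took in sequences without adapter letters, some of them near a microRNA, so not all of its reads held adapter letters. Within 2 mismatches of Mir5099 lay 12 retained sequences, with 2612 and 4075 reads. These reads were left in the totals, and their part in the results is given by class below.

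Few retained sequences came from protein-coding genes, the main source of the other candidates. A sense match to a transcript of such a gene was found in 55 (3.50%), against 66.6% of the other candidates. A sense match to a lncRNA was found in 71 (4.52%, against 7.99%), and to a pseudogene in 0, against 61 of the other candidates. Once rRNA-holding transcripts and the other marked classes were set apart, 9 retained sequences (0.573%, against 6.59%) remained classed as lncRNA. Only antisense matches were found in 36 (2.29%, against 3.35%). No transcript match at all was found in 1409 (89.7%, against 21.4%). Of the 5638 candidates classed as sense to a protein-coding gene, 50 (0.887%) were retained. Among the 1948 candidates with neither a transcript match nor a mark of the classes above, 598 (30.7%) were retained, and these held 24.1% of the retained reads. The spike-ins that were added to the RNA were not identified, so this class may include them. The classes near small RNAs, with rRNA, tRNA or C and D box letters and with adapter letters together took in 881 retained sequences (56.1%) with 72.4% of the reads, against 14.2% of the other candidates. Without the classes near microRNAs and with adapter letters, 678 (43.2%) with 60.9% of the reads remained.

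Named source genes were few. Gm42418, a transcript that holds rRNA sequence, gave 57 sequences with 9433 reads in wild type and 10583 in the mili knock-out. Rmrp gave 3 sequences, with 6278 and 8910 reads. Ribosomal protein genes gave 9 sequences from 3 genes, among them 2 from Rpl5 (1158 and 1985 reads) and 6 from Rpl13 (832 and 1011 reads). The Rpl13 reads led with a 30-nt sequence in exon 2 of 3 of an annotated transcript (GRCm38, chr8:123103033-123103062, + strand). Tmem38b, the gene of an endoplasmic reticulum ion channel, was matched by 7 sequences with 814 and 1559 reads, led by one in its UTR. This lead starts with accgcc, which are also the last bases of the 5S fragments printed below. An origin from 5S rRNA beyond the annotated copies was not tested. The mitochondrial cytochrome oxidase gene mt-Co1 gave 9, with 262 and 218 reads. Histone genes gave 0 retained sequences and 168 of the other candidates. Lists of feeder fibroblast genes and of undifferentiated spermatogonia genes also gave 0 retained sequences, beside 37 and 2 of the other candidates. Matches to 20 or more genes were held by 2 retained sequences and 404 of the other candidates.

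A repeat-like set of 5 sequences matched D10Wsu102e and several other genes, Gm26905 and Gm4117 among them, so their source cannot be assigned to 1 gene. They had 278 reads in wild type, 687 with NaIO4, 870 in the hen1 knock-out, 1330 there with NaIO4, 450 in the mili knock-out and 16 in the immunoprecipitate. The lead lies in a UTR of D10Wsu102e (GRCm38, chr10:83445787-83445812, + strand) and in 12 genes in all, and is shown because it was higher with NaIO4 in both genotypes.
D10Wsu102e and others: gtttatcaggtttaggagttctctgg
Its reads were 156 and 370 in wild type without and with NaIO4, which gave a ratio of rpm of 1.69. In the hen1 knock-out they were 416 and 697, a ratio of 7.53. The immunoprecipitate held 1 read of it.

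The first base set the retained sequences apart from the other candidates. T began 438 of them (27.9%, 25.7% to 30.2%), against 85.5% (84.8% to 86.2%) of the other candidates. G began 515 (32.8%), C 356 (22.7%) and A 262 (16.7%), where each of these bases began 4.48% to 5.37% of the other candidates. By reads, G led with 48.7% and T had 23.9%. Sequences near microRNAs were the class with the most T, at 71.8%. Those with tRNA letters began with T in 30.8%, those with C and D box letters in 17.9% and those without any match in 21.6%. An A as base 10, which secondary piRNAs of the ping-pong cycle often have, was found in 17.95% (against 33.2%). The last base was T in 36.7% and C in 34.6%, against 34.7% and 45.4%.

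By distinct sequences, length was spread evenly over the window. Each length from 25 to 31 nt held 12.5% to 16.4% of the retained sequences, with 15.7% at 25 nt and 15.8% at 31 nt. By reads the longer ones led, with 22.4% at 31 nt against 9.65% at 25 nt and 8.92% at 26 nt. The other candidates peaked at 28 nt with 23.0%, and had 3.20% at 25 nt and 8.57% at 31 nt. Longer or shorter forms with at least as many wild type reads were common. A retained sequence was the start of a sequence of 32 to 40 nt in 301 cases (19.2%, against 5.71%), itself started with one of 18 to 24 nt in 482 (30.7%, against 4.36%) and ended with one in 393 (25.02%, against 3.06%). At least 1 of these held for 936 (59.6%, against 11.7%). The window of 25 to 31 nt thus cut through a wider range of lengths of the same RNAs.

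MILI binding was low for most retained sequences. The immunoprecipitate was compared with untreated wild type, a library that the choice also used, so a chance low wild type count raises both ratios. The retained sequences together stood at 0.162 (0.161 to 0.163) of their wild type rpm in the immunoprecipitate, while the other candidates stood at 1.78 (1.77 to 1.78) and microRNA reads at 0.0440. The median over single sequences was 0.0281 for the retained and 1.11 for the other candidates. Lower by 2-fold or more were 1427 (90.8%, against a background of 32.8% over all candidates), and higher by as much were 12 (0.764%, background 22.5%). Scaled to microRNA reads, which were themselves low in the immunoprecipitate, the ratio was 3.22 for the 661 sequences retained on that scale, so the direction holds for the share of the library and not relative to microRNAs.

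By depth, 661 retained sequences (42.1%, 39.6% to 44.6%) had 10 or more immunoprecipitate reads, against 94.5% of the other candidates and a background of 86.8%. At or above their wild type rpm in the immunoprecipitate were 56 (3.57%, background 46.9%). The immunoprecipitate held 0 reads of 288 (18.3%), where 3 counts correspond to 0.119 rpm, against 1.90% of the other candidates. Every class stood below its wild type level as a whole. The ratio was 0.276 for tRNA letters, 0.0775 for rRNA-holding transcripts, 0.0717 without any match, 0.0282 near microRNAs, 0.0158 with adapter letters, 0.00323 near snoRNA or snRNA and 0.00294 with C and D box letters. The C and D box class had 33 of its 56 sequences at 0. Relative to microRNA reads, at 0.0440, the tRNA class was higher and the C and D box class lower.

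The immunoprecipitate reads of the retained set came from few sequences. The 10 sequences with the most such reads, picked after their values were seen, held 52.9% of them, and 9 of the 10 had tRNA letters. The glutamate-type lead had 26122 reads there and 6853 in wild type, a ratio of rpm of 1.11 (1.08 to 1.14). The next was a lysine-type sequence, which is printed beside the lysine-type lead since they differ at 2 positions, A7C and C28G, counted from the 5′ end. Capitals mark these positions.
Lysine-type lead: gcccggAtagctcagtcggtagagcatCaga
Second lysine type: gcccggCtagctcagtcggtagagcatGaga
The second sequence had 5171 reads in wild type, 1845 with NaIO4, 5036 in the hen1 knock-out, 220 there with NaIO4, 4125 in the mili knock-out and 24252 in the immunoprecipitate. The lead had 10748, 736, 4979, 199, 9741 and 1316 in the same order. Their immunoprecipitate to wild type ratios were 1.36 (1.32 to 1.40) and 0.0355 (0.0335 to 0.0376), while their mili knock-out to wild type ratios were 1.22 and 1.38. The NaIO4 ratio in wild type was 0.254 for the second and 0.0488 for the lead, both below 1.

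The highest immunoprecipitate ratios among sequences with 50 or more wild type reads went mainly to low-count tRNA variants. A proline-type variant of 26 nt had 92 wild type and 1062 immunoprecipitate reads, a ratio of 3.35 (2.71 to 4.14). An aspartate-type variant had 140 and 1555 (3.22, 2.71 to 3.83), and a 31-nt form of the glutamate type had 90 and 821 (2.65, 2.13 to 3.29).

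The share of the retained sequences in wild type cells was lower with NaIO4. Together they stood at 0.450 (0.448 to 0.452) of the untreated rpm, the other candidates at 1.45 and microRNA reads at 0.0800. The median over single sequences was 0.124 (quartiles 0.0343 and 0.603), against 1.39 for the other candidates. Among the retained, 1133 (72.1%, background 19.3%) were down by 2-fold or more and 41 were up by as much (2.61%, background 17.7%). With NaIO4, 239 of the 1571 had 0 reads, a count not made for the other candidates. Treated libraries hold fewer unprotected RNAs, so a ratio above 1 states a share, and relative to microRNA reads the ratio was 5.76 for the 661 sequences retained on that scale. As with the immunoprecipitate, the untreated wild type library enters both this ratio and the choice.

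The classes differed widely in this ratio. It was 0.0494 with C and D box letters, 0.0628 near microRNAs, 0.0703 for lncRNAs (mainly Rmrp), 0.0918 near other small RNAs, 0.174 near mitochondrial RNA, 0.405 with tRNA letters and 0.444 without any match. The class without any match includes leads named as rRNA, as described above. Near 1 were rRNA-holding transcripts at 0.811, adapter letters at 0.986 and antisense matches at 0.988. The antisense sequences with the most wild type reads (641, 273, 211 and 185) lay antisense to CT010467.1, as did the Gm42418 lead. Whether the antisense class holds rRNA fragments was not tested. Sequences near 5S or 5.8S rRNA stood at 3.56 together, with a median of 0.639. Without 2 of the 38, which held 14871 of the 19608 treated reads, they stood at 0.884 (0.847 to 0.922). The microRNA-like, C/D box and Rmrp sequences thus stood at or below the 0.0800 of microRNA reads, and the 5S and Gm42418 fragments stood far above it.

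The 5S fragments gave the highest single ratios. The printed pair is shown because each was far more abundant after NaIO4, and capitals mark a base that differs from the annotated 5S gene.
5S, 25 nt: Tttagtacttggatgggagaccgcc
5S, 26 nt: gTttagtacttggatgggagaccgcc
The 25-nt sequence had 65 reads in wild type, 8247 with NaIO4, 75 in the hen1 knock-out, 6169 there with NaIO4, 303 in the mili knock-out and 1 in the immunoprecipitate. Its NaIO4 ratio was 90.4 (70.8 to 115) in wild type and 369.6 (294 to 464) in the hen1 knock-out. The 26-nt sequence, which was named after its values were seen, had 42, 6624, 42, 4652, 313 and 0 reads in the same order. It had the highest mili knock-out to wild type ratio of all retained sequences, 11.4. Both were far higher by rpm in the treated libraries of both genotypes than in any untreated one. The untreated libraries differed too, with the 25-nt sequence at 63.0 rpm in the mili knock-out and 8.88 in wild type.

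At the other end, 44 of the 765 retained sequences with 50 or more wild type reads had 0 reads with NaIO4, a count not made for the other candidates. The 5 of these that come first in alphabetical order were named, and the one with the most wild type reads, which has tRNA letters, is printed here.
0 reads with NaIO4: aggcggcccgggttcgactcccggtgtggg
It had 325 reads in wild type, 752 in the hen1 knock-out and 292 in the mili knock-out, and 2 in the hen1 knock-out with NaIO4 and in the immunoprecipitate. Set against 3 counts in the treated library, it was at least 152-fold lower with NaIO4.

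In the hen1 knock-out, where piRNAs lose their methyl group, the pooled reads of the retained sequences did not lose share with NaIO4. They stood at 1.094 (1.087 to 1.101) of the untreated rpm, against 0.349 for the other candidates and 0.387 for microRNA reads. This ratio shares no library with the choice. Its distance from 1 depends on the setting. With the 10 most abundant sequences left out of the totals, which also changes the set to 1739 sequences, it was 1.63. It was 0.989 (0.982 to 0.996) with sequences near small RNAs left out, and 0.997 (0.986 to 1.01) with a mili knock-out ratio of at least 2 required. Among the 1234 retained sequences with 20 or more untreated hen1 knock-out reads, the median was 0.333, against 0.230 for the other candidates. At least 2-fold lower were 760 (61.6%, background 78.3%) and at least 2-fold higher 255 (20.7%, background 4.98%). The pooled value above 1 thus stands beside a median below 1, with a minority of sequences at high ratios. Of the 114215 treated reads, 19331 had adapter letters and 10821 came from the 2 printed 5S sequences. In the 469074 untreated reads these held 22440 and 117. No setting left these reads out together, so the pooled value does not describe the retained sequences apart from them.

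The classes differed in this ratio as well, and the antisense class may not be separate from rRNA, as described above. The ratio in the hen1 knock-out was 22.5 near 5S or 5.8S rRNA (4.31 without the same 2 sequences, and a median of 2.70), 4.15 for rRNA-holding transcripts, 3.87 with adapter letters, 3.71 for antisense matches and 3.06 for protein-coding genes. The protein-coding class had 3425 untreated and 2334 treated reads there. The 5 repeat-like sequences that matched D10Wsu102e, which cannot be assigned to 1 gene, had 870 and 1330. Against the background of 4.98%, at least 2-fold higher were 52 of 64 sequences with adapter letters, 36 of 44 from rRNA-holding transcripts, 19 of 32 near 5S or 5.8S rRNA, 18 of 26 with antisense matches and 15 of 33 from protein-coding genes. The class without any match, which includes leads named as rRNA, had a pooled ratio of 1.99. It gave the most sequences at least 2-fold higher, 93 of 451. Near microRNAs 0 of 82 were, and with C and D box letters 0 of 27. The tRNA class had a ratio of 0.335, with 16 of 405 at least 2-fold higher and 306 lower by as much. Over all candidates these shares were 4.98% and 78.3%, so both counts of the tRNA class were near the background. The lysine-type, proline-type and glycine-type families of this class stood at 0.207, 0.321 and 0.366.

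Within the rRNA-derived families the ends of the molecule differed. The family at the start of 28S (29 sequences, 15456 wild type reads) had NaIO4 ratios of 0.649 in wild type and 3.66 in the hen1 knock-out. The Gm42418 family (7 sequences, 7709 reads) had 0.792 and 4.24. The family of the 5.8S 5′ part (38 sequences, 8534 reads) had 0.621 and 1.39. The family of the 5.8S 3′ end (34 sequences, 8923 reads) had 0.0371 and 0.180, in the range of microRNAs.

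Untreated, the hen1 knock-out to wild type ratio had a median of 0.510 over the retained sequences and 0.409 over the other candidates. Lower by 2-fold or more were 771 (49.1%, background 55%), and higher by 2-fold or more were 112 (7.13%, background 10.2%). The glycine-type family was an exception, with 45366 reads in wild type and 153105 in the hen1 knock-out. The share at least 2-fold lower was near the background.

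Forms of the same RNA with different 3′ ends gave different values, as the forms of the proline-type 5′ end show. They share their first 20 bases, and capitals mark the bases after these.
25 nt: ggctttggtctaggggtatgATTCT
26 nt: ggctttggtctaggggtatgATTCTC
28 nt: ggctttggtctaggggtatgATTCTCGC
30 nt: ggctttggtctaggggtatgATTCTCGCTT
31 nt: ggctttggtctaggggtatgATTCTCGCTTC
The 28-nt form, the most abundant of all retained sequences, had 13538 reads in wild type, 1419 with NaIO4, 9908 in the hen1 knock-out, 487 there with NaIO4, 9667 in the mili knock-out and 2214 in the immunoprecipitate. The 30-nt form had 4321, 4503, 16351, 643, 3080 and 11735. Both forms were below their wild type rpm in the immunoprecipitate, the 30-nt form at 0.788 (0.761 to 0.816) and the 28-nt form at 0.0474 (0.0454 to 0.0496). Its NaIO4 ratio in wild type was 0.742 against 0.0746, and both were below 1 in the hen1 knock-out, at 0.177 and 0.221. The 31-nt form fell back to 0.0510 in the immunoprecipitate and 0.0508 with NaIO4. The 26-nt form was not retained, since its mili knock-out ratio was 0.654, and its immunoprecipitate ratio was 3.06. The mili knock-out ratio of the 28-nt and 30-nt forms was the same within error, 1.09 for each.

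Neighbouring glutamate-type forms differed as well. The 28-nt form fell just short of the threshold, at 0.896, and the 29-nt form passed it, at 1.11 (1.07 to 1.15).
28 nt, not retained: tcccacatggtctagcggttAGGATTCC
29 nt, retained: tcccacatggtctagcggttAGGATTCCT
30 nt, retained: tcccacatggtctagcggttAGGATTCCTG
Reads of the 28-nt form were 23040 in wild type, 13139 with NaIO4, 19044 in the hen1 knock-out, 3854 there with NaIO4, 13551 in the mili knock-out and 3199 in the immunoprecipitate. Those of the 29-nt form were 6853, 24083, 3200, 255, 4974 and 26122. With NaIO4 in wild type the shorter form stood at 0.406 and the longer at 2.50, and in the immunoprecipitate at 0.0403 and 1.11. In the hen1 knock-out the NaIO4 ratio was 0.909 for the shorter form and 0.358 for the longer. The 30-nt form resembled the 29-nt form, with 1.70 with NaIO4, 1.90 in the immunoprecipitate and 0.284 with NaIO4 in the hen1 knock-out. The retained 31-nt form was lower, at 0.925 with NaIO4 and 0.640 in the immunoprecipitate. Forms of 25 to 27 nt were not retained and had mili knock-out ratios of 0.127 to 0.189. Their NaIO4 ratios in wild type, 1.09, 1.23 and 1.52, were above that of the 28-nt form.

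Among glycine-type forms, those with the 3′ end gaattctcg stood apart in the hen1 knock-out. In the glycine-type lead family, the 29-nt form had 708 untreated and 473 NaIO4 reads there, a ratio of 3.002 (2.67 to 3.37). The 25-nt to 28-nt forms had ratios of 0.325 to 0.467, and the 30-nt and 31-nt forms 0.355 and 0.386. A variant 5′ end had 2.95 at 29 nt, 0.484 to 0.949 at 25 to 28 nt, and 0.365 and 0.309 at 30 and 31 nt. In another variant 5′ end, the 28-nt form had 2.70, the 25-nt to 27-nt forms 0.429 to 0.665 and the 29-nt form 0.425. The forms with the high ratio were all low in the immunoprecipitate, at 0.0622, 0.0168 and 0.0670 of wild type. Forms at the start of 28S, retained at 26 to 31 nt, also differed. From 26 nt to 31 nt the hen1 knock-out ratio was 5.65 and 2.14, and the immunoprecipitate ratio 0.00300 and 0.0463.

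A piRNA-like pattern was rare among the retained sequences. It was taken as an immunoprecipitate rpm and a NaIO4 rpm at or above untreated wild type, with at least 20 untreated hen1 knock-out reads and at least 2-fold lower rpm there with NaIO4. This held for 17 retained sequences (1.08%) and 2316 of the other candidates (25.2%), a background of 21.7%. These shares are of all sequences, though only 1234 retained sequences and 5171 other candidates had the reads in the hen1 knock-out that the pattern requires. The 17 held 9426 wild type reads, 2.80% of the retained reads, and 14 began with T. tRNA letters were in 15, and 9 of the 17 began with the same 5 bases as the glutamate-type lead and held 8544 of the reads. The 2 without tRNA letters had no transcript match, and the other classes gave 0 such sequences.
Second glutamate type, 27 nt: tcccTGGTCTAGTGGttaggattcggc
Glutamate variant: tcccacaTTGTCTAGCGGttaggattcct
The 27-nt form had 611 reads in wild type, 1238 with NaIO4, 344 in the hen1 knock-out, 37 there with NaIO4, 727 in the mili knock-out and 2595 in the immunoprecipitate. The variant had 430, 1461, 172, 12, 301 and 1521. Their immunoprecipitate ratios were 1.23 (1.13 to 1.35) and 1.03 (0.922 to 1.14).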

How the data were processed

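Small RNA was sequenced on a Hi-Seq2500 from 6 libraries, 1 per group. The deposited files hold counts of reads per distinct sequence, collapsed by the authors without scaling (no header; whole numbers whose totals differ between files). Per the submitters' processing notes, Bowtie (no version) and mm10 were used. How adapters were trimmed is not given in the sources used here. The spike-ins that the labels mention were not identified, so no absolute amounts were derived. Column 2 was divided by the reads of 18 to 35 nt.

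Candidates were matched exactly, on both strands, to GENCODE M21 transcripts (GRCm38), and small RNAs of 11 biotypes were left out. Near matches allowed 2 mismatches, and edlib 1.3.9.post1 allowed 4 edits to 13 tRNA genes of RefSeq. Coordinates are of GRCm38. A sequence took the first class that applied, in the order adapter letters, near small RNA, rRNA-holding transcript, tRNA letters, C and D box letters, then source. Motifs were read on the strand of the read. Ratios are of rpm, with 95% log-scale intervals from the counts, and shares have exact binomial intervals (scipy 1.17.1, numpy 2.4.6, pandas 2.3.3, Python 3.11.15). A level of 0 was set against 3 counts. Matching and the choice of members were tested on simulated data.

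The members and lists were chosen with earlier results of these data known. The adapter, C box and D box letters, the limit of 10 bases on the A box, the piRNA-like pattern, the longer and shorter forms and the classes were chosen after seeing the data. Sequences were named by rule: in each of the 5 source groups up to 5 with the most wild type reads (2 per family), and, among those with 50 or more reads, the 5 with the highest immunoprecipitate ratio and the 5 with the highest and lowest NaIO4 ratio, with those nearest the threshold. Source genes were the 10 with the most reads. Lead sequences of families, forms by length and top sequences in the immunoprecipitate were added after seeing the data. Alternatives were other read minimums, ratio thresholds, library totals and filters. 1 named sequence is not reported here.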

Additional observations from a re-analysis of the deposited data

Results flagged for a closer look

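Groups of sequences in which NaIO4 lowered the pooled share in wild type and raised it in the hen1 knock-out were noted for a closer look. With 1 library per genotype and treatment, the difference between the genotypes was not tested. Sequences near snoRNA or snRNA stood at 0.502 of the untreated rpm in wild type and 2.39 in the hen1 knock-out. Those in rRNA-holding transcripts stood at 0.811 and 4.15, those sense to protein-coding genes at 0.523 and 3.06, and those with no match at 0.444 and 1.99. The group with no match includes leads named as rRNA, so it is not separate from structural RNA. The protein-coding group includes repeat-like sequences that matched D10Wsu102e and other genes, so its source is not settled either. Medians over single sequences differed from these pooled values near snoRNA or snRNA, at 0.0755 and 0.198, for protein-coding genes, at 0.151 and 1.09, and without a match, at 0.0930 and 0.328. Near snoRNA or snRNA, 6 sequences at the Mir3096 locus, which is annotated as snoRNA, held 3756 of the 5571 wild type reads and had 3763 with NaIO4, 2569 in the hen1 knock-out and 1896 there with NaIO4. The hen1 knock-out library with NaIO4 was the smallest, with 2604390 reads of 18 to 35 nt.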

How the results depend on the processing

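The 7 main values are the number of retained sequences, their share of wild type reads, their first base T, their share with 10 or more immunoprecipitate reads, their immunoprecipitate ratio, and their NaIO4 ratios in wild type and in the hen1 knock-out. Of 70 values under other settings, 16 moved by no more than their counting error or, for the number, by less than 1.5 times, 48 moved further and 6 crossed 1. Per microRNA read the number was 661, the share 1.52%, first base T 30.4%, 10 or more immunoprecipitate reads 38.1% and the hen1 knock-out NaIO4 ratio 2.34, while the immunoprecipitate and wild type NaIO4 ratios turned to 3.22 and 5.76. Without Mir5099 in the microRNA reads, a setting added after seeing the data, these were 660, 1.52%, 30.5%, 38.2%, 2.59, 3.21 and 6.01. Directions from these ratios thus hold for shares of the library only. With a ratio of at least 2 the values were 486, 1.06%, 30.5%, 38.5%, 0.101 and 0.497, and the hen1 knock-out ratio was 0.997, with an interval (0.986 to 1.01) that includes 1. It was 0.989 without sequences near small RNAs, where the others were 4.05%, 24.6%, 44.9%, 0.181 and 0.446. With a minimum of 10 reads the values were 2695, 4.80%, 33.4%, 0.165, 0.453 and 1.11, and with 50 reads 765, 4.26%, 30.9%, 54.5%, 0.439 and 1.04. With the lower limit of the ratio at 1 or more they were 1000, 4.08% and 0.156. Without rRNA-holding transcripts they were 4.47%, 0.165, 0.440 and 1.02, per all reads 4.53%, 0.166, 0.465 and 1.06, and without the 10 most abundant sequences 5.18%, 0.152, 0.436 and 1.63. No paired analysis was possible because each group had 1 library and the labels give no replicate numbers, and no library could be left out. The cause of these shifts was not tested beyond what each setting itself changes. Depth limits single sequences most in the hen1 knock-out with NaIO4, where 351 of the 1571 retained sequences had 0 reads and 3 counts are 1.15 rpm.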
